A study of Homo sapiens with 8 samples.

Results

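The cytosolic ribosomal protein genes are the genes that encode the protein components of the cytoplasmic ribosome. Membership followed a rule on the symbol, chosen with earlier results of these data known. The rule was RP followed by L (large subunit) or S (small subunit), digits and at most 1 letter A or X, plus RPLP0, RPLP1, RPLP2 and RPSA. By this rule 74 of the 19411 genes of the deposited table were members, 43 of the large and 31 of the small subunit. RPL7A, RPL18 and RPL30 matched no row and were not analysed here.

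Poly(A) RNA was sequenced from HCT116, a human colorectal carcinoma cell line, in lines that were all equipped for CRISPRi, where guide RNAs bring a Cas9 repressor that cannot cut to chosen promoters. Each of 4 groups had 2 libraries: the circPRE8 line with the guide sgNORAD, the circPRE2 line with sgNORAD, the Parental line with sgNORAD, and the Parental line with the guide sgControl. NORAD is a long noncoding RNA that binds PUMILIO proteins, and its own level was not analysed here, which leaves the knockdown unchecked. The labels do not say what distinguishes circPRE2 and circPRE8 from the Parental line, whether a line is 1 clone, or whether the libraries of a group came from separate cultures, so p-values reflect only how libraries of a group varied, which may be technical.

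A ribosome holds 1 copy of nearly every ribosomal protein, and cells make these proteins in balanced amounts. Many of their mRNAs begin at their capped end with a C and a run of pyrimidines, the terminal oligopyrimidine (TOP) motif, through which mTOR signalling and the RNA-binding protein LARP1 control their translation and stability. MYC drives transcription of many ribosomal protein and ribosome assembly genes. RPL5 and RPL11 also bind MDM2 and restrain it when ribosome assembly fails.

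Values are RPKM as deposited, meaning reads divided by the length of the gene and the size of its library. By the library sizes recovered from the deposited values, 1 read per kilobase was worth 0.0224 and 0.0203 RPKM in circPRE8 sgNORAD, 0.0216 and 0.0199 RPKM in circPRE2 sgNORAD, 0.0352 and 0.0219 RPKM in Parental sgNORAD, and 0.0235 and 0.0223 RPKM in Parental sgControl. Parental sgNORAD replicate 1 was therefore the shallowest library. Only 4 mitochondrially encoded genes have a row in the deposited table. They held 4.01% of the summed RPKM of Parental sgNORAD replicate 1, against 6.45% to 8.69% in the other 7 libraries. The epithelial markers EPCAM, CDH1, KRT8, KRT18 and KRT19 were present in every library, from 5.78 RPKM for CDH1 to 619 RPKM for KRT19 at the extremes. Of 10 markers of fibroblast, blood, liver and neural cells, COL1A1 was highest at 2.51 to 4.04 RPKM, MAP2 reached 1.1 RPKM and COL1A2 0.817 RPKM, and the other 7 stayed at or below 0.152 RPKM.

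The start sequences of a set of members are printed because the TOP motif lies there and because the members shown took different courses in the comparisons. RefSeq promoter sequences (GRCh38.p14) matched 60 of the 74 members. Each line gives 30 bases, 10 before and 20 from an annotated transcription start, 5′ to 3′ on the gene's own strand, with the unbroken pyrimidine run that begins at the start in capitals. RPL13A, RPS18, RPL28 and RPS24 carry the motif and passed the test for a higher level in Parental sgNORAD than in Parental sgControl. RPLP0, RPLP1 and RPLP2 carry it and did not pass. RPL3, RPL10A and RPS28 passed without it, and RPS15 neither carries it nor passed.
RPL13A, chr19:49487598-49487627, plus strand: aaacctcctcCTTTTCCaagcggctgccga
RPS18, chr6:33272065-33272094, plus strand: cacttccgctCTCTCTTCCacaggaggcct
RPL28, chr19:55385922-55385951, plus strand: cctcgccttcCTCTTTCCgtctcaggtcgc
RPS24, chr10:78033853-78033882, plus strand: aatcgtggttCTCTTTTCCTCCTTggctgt
RPLP0, chr12:120201092-120201121, minus strand: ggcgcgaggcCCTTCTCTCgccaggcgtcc
RPLP1, chr15:69452808-69452837, plus strand: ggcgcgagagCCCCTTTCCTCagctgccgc
RPLP2, chr11:809957-809986, plus strand: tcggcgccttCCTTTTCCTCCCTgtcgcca
RPL3, chr22:39319604-39319633, minus strand: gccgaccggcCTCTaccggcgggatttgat
RPL10A, chr6:35468391-35468420, plus strand: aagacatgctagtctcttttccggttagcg
RPS28, chr19:8321486-8321515, plus strand: gaagcacgtgactcctctccgccagaccgc
RPS15, chr19:1438386-1438415, plus strand: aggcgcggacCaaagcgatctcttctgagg

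The motif searched was a C at an annotated start followed directly by at least 4 letters that are C or T, on the gene's strand only. It stood at a start of 44 of the 60 matched members (73.3%), against 5.14% of 27305 genes with a RefSeq promoter. A C was the first base in 47 of 60 members (78.3%), against 4915 of all 27305 genes. Searched at any position of the 30-base window, the same run was found in 56 of 60 members (93.3%) and in 43.4% of all genes. RPL10A and RPS28 are examples of members with such a run inside the window but not at the annotated start. Among genes outside the rule, 11 of 12 matched mRNAs of a list of other TOP mRNAs held the motif at a start, 4 of 36 ribosome assembly genes and 6 of 68 mitochondrial ribosomal protein genes.

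All 74 members passed the filter of at least 0.5 RPKM in at least 2 libraries, as did 11585 genes in all. The median member had a mean of 208 RPKM over the 8 libraries, against 6.94 RPKM for the median gene tested. Members filled 35 of the 100 highest ranks. The level per length was spread widely: 3 members were above 1000 RPKM, 55 lay between 100 and 1000, 12 between 10 and 100, and 4 below 10. RPS12 was highest at a mean of 1275 RPKM, followed by RPS2, which lines the mRNA entry channel, at 1222, RPL8 at 1020, RPL13A at 815 and RPLP0, the base of the P-stalk, at 620 RPKM. Among the 5 lowest were RPS10 at 0.985, RPL36A at 1.58, RPL17 at 8.88 and RPS15A at 14.1 RPKM.

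These lowest levels coincided with annotated overlap of coding sequence. In GENCODE release 29, RPL17 shares 98.2% of its coding bases with the readthrough gene RPL17-C18orf32, RPL36A 67.3% with RPL36A-HNRNPH2, RPL26 60.7% with AC135178.2, RPL22 59.4% with AL031847.2 and RPS10 56.9% with RPS10-NUDT3, each on the same strand. All 4 members below 10 RPKM share over 50% of their coding bases in this way, and RPS15A shares 36.9% with AC138811.2. A low level also occurred without such overlap. A member that shares none of its coding bases had a mean of 17.85 RPKM, below RPL26 at 18.5 and RPL22 at 25.1 RPKM. Of the overlapping genes that have a row in the table, RPL17-C18orf32 reached 0.264 RPKM, RPL36A-HNRNPH2 0.101 RPKM and RPS10-NUDT3 0.0418 RPKM. Whether reads of both genes were dropped in counting was not tested, and the annotation release used by the authors is not given in the sources used here. The reads behind the lowest levels were 70 to 127 per library for RPS10, 182 to 385 for RPL36A and 634 to 1103 for RPL17. In addition, 73 of the 74 members have pseudogenes by name, 1077 in all, with 91 for RPL23A, 74 for RPSA, 66 for RPL21 and 61 for RPL7. Part of a member's reads may have gone to such copies, but neither their sequence identity nor the read mapping was tested.

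**Figure D1:**
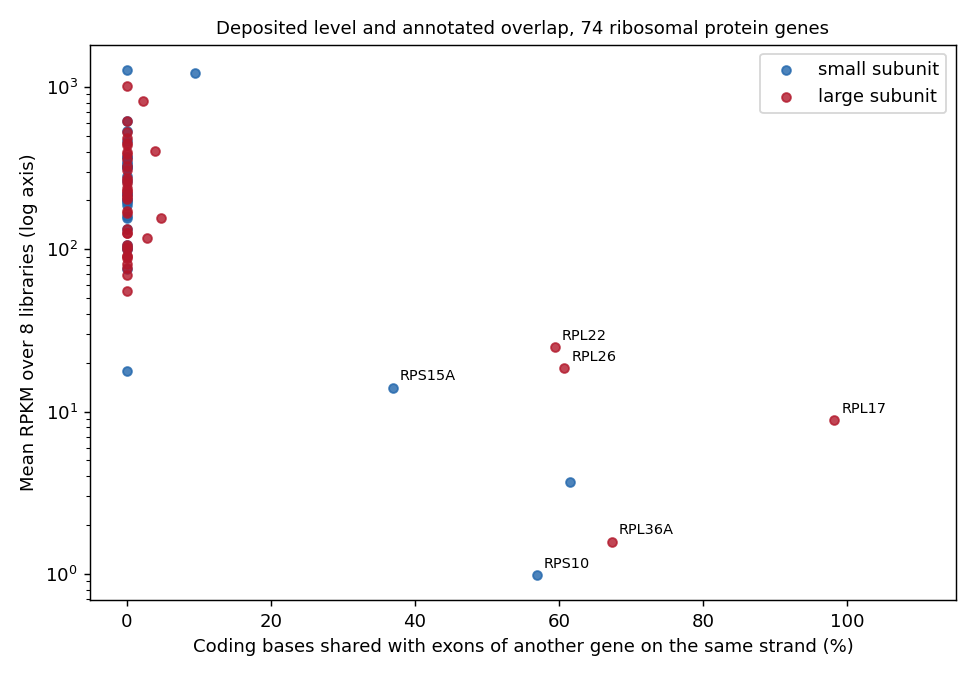
Mean RPKM over 8 libraries (vertical log axis) of 74 ribosomal protein genes against the percentage of their coding bases shared with exons of another gene on the same strand (horizontal axis), with small- and large-subunit genes in different colours. The 4 genes below 10 RPKM, RPL17, RPL36A and RPS10 among them, all share over 50% of their coding bases, as do RPL22 and RPL26.

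The first question was how the NORAD guide in the Parental line moved ribosomal protein mRNAs relative to the control guide. Most members were higher in Parental sgNORAD, by small amounts: 56 of 74 (75.7%) rose and none fell, where 20.9% of all genes tested rose and 16.4% fell. The median member changed by 0.16 on the log2 scale, against 0.02 for the median gene tested, and the members ranged from -0.01 for RPS15 to 0.45 for RPL36A. Both subunits took part, with 34 of 43 large-subunit and 22 of 31 small-subunit genes higher. The 74 members together made up 9.46% and 9.20% of the summed RPKM in Parental sgNORAD, against 8.08% and 8.35% in Parental sgControl. In bulk RNA, a change in the cells that carry a transcript and a change of its amount per cell cannot be told apart. The test was limma on log2(RPKM + 0.1) over all 8 libraries with Benjamini-Hochberg adjustment over 11585 genes and a threshold of 0.05, and fold changes are on that scale.

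RPL13A, a large-subunit protein, had 892 and 887 RPKM in Parental sgNORAD and 695 and 718 RPKM in Parental sgControl. Both Parental sgNORAD libraries were above both control libraries, and the fitted difference was 1.26-fold (log2 0.33 ± 0.041 SE, limma adjusted p = 9.82e-05). RPS18, in the head of the small subunit, had 676 and 688 RPKM in Parental sgNORAD and 542 and 558 RPKM in Parental sgControl. It was 1.24-fold higher, again with no overlap (log2 0.31 ± 0.040 SE, limma adjusted p = 0.000134). RPL28, of the large subunit, had 126 and 129 RPKM in Parental sgNORAD, against 102 and 108 RPKM in Parental sgControl, a rise of 1.22-fold (limma adjusted p = 0.000207). RPL12, at the foot of the P-stalk, had 431 and 434 RPKM in Parental sgNORAD and 346 and 365 RPKM in Parental sgControl, also 1.22-fold higher (limma adjusted p = 0.000247). These 4 genes separated the groups in every library. RPS28, beside the mRNA exit channel, was at 202 RPKM in both Parental sgNORAD libraries and at 159 and 176 RPKM in Parental sgControl, 1.21-fold higher (limma adjusted p = 0.000882).

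RPL36A had the largest fitted rise, 1.37-fold, on few reads (log2 0.45 ± 0.15 SE, limma adjusted p = 0.0303). It had 1.75 and 2.12 RPKM in Parental sgNORAD and 1.59 and 1.21 RPKM in Parental sgControl, so the groups were apart by less than the spread within either of them. Its adjusted p ran between 0.0134 and 0.251 over the alternative settings, and 5 of them lost the call, among them leaving out Parental sgNORAD replicate 2 (0.168) or Parental sgControl replicate 2 (0.251).

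**Figure D2:**
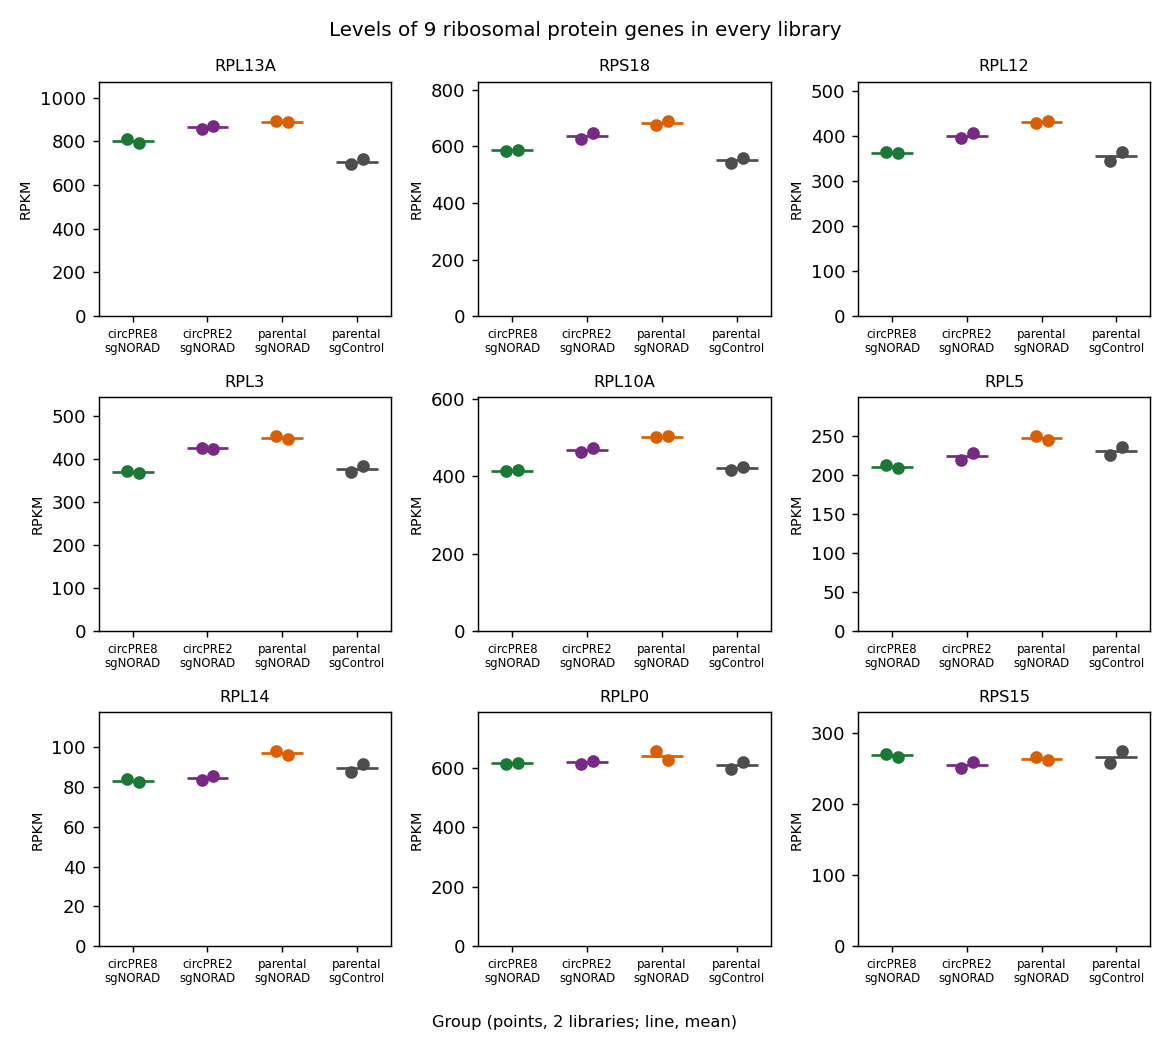
RPKM of 9 ribosomal protein genes (vertical axes from 0) in the 4 groups, with a point for each library and a line at the group mean of 2 libraries. RPL13A, RPS18, RPL12, RPL3 and RPL10A are highest in Parental sgNORAD, RPLP0 and RPS15 lie at nearly one height, and RPL5 and RPL14 are lower in both circPRE lines than in Parental sgNORAD.

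Members were then read by place in the ribosome, with no test between places. None of the 3 P-stalk genes, whose proteins recruit translation factors, passed the test with the deposited scaling, though RPLP0 and RPLP1 passed under another. RPLP0 had 655 and 625 RPKM in Parental sgNORAD and 594 and 620 RPKM in Parental sgControl, RPLP1 had 374 RPKM in both Parental sgNORAD libraries and 342 and 362 RPKM in Parental sgControl, and RPLP2 had 452 RPKM in both and 411 and 446 RPKM. In all 3 genes the lower Parental sgNORAD library was still above the higher control library, and the log2 differences were 0.08, 0.09 and 0.08. Of the 5S ribonucleoprotein pair, RPL11 rose 1.15-fold (limma adjusted p = 0.00148) while RPL5 missed the threshold (1.07-fold, limma adjusted p = 0.0579); the difference between them was not tested. RPL11 had 254 and 264 RPKM in Parental sgNORAD, against 220 and 229 RPKM in Parental sgControl. RPL5 had 249 and 244 RPKM in Parental sgNORAD and 225 and 235 RPKM in Parental sgControl.

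Around the exit tunnel for the growing polypeptide, 7 of 9 genes rose: RPL26 (1.15-fold), RPL39 (1.13-fold), RPL23A, RPL35 and RPL22 (1.11-fold each), RPL4 and RPL31 (1.1-fold each). RPL17 (1.09-fold) and RPL19 (1.06-fold) did not pass. Along the mRNA channel of the small subunit, 4 of 5 rose, namely RPS28, RPS26 (1.19-fold, limma adjusted p = 0.000518), RPS2 (1.1-fold) and RPS3 (1.08-fold), and RPSA was at 1.06-fold without passing. RPS6, the classical substrate of S6 kinase, rose 1.15-fold. Members with the TOP motif at a start passed in 35 of 44 cases (median log2 0.17) and those without it in 11 of 16 (median 0.13); the difference was not tested. The 10 members that no library scaling called in this comparison included RPL17, RPL32, RPLP2, RPS10, RPS15, RPS20 and RPS21.

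Part of the count rested on single libraries. Members moved together between the 2 control libraries: 70 of 74 were higher in Parental sgControl replicate 2 than in replicate 1 (median log2 0.064), where 5794 of all 11585 genes tested were. Without Parental sgControl replicate 1, 35 members rose with a median of 0.13, as did 1780 of all 11585 genes. Without replicate 2, 59 members rose with a median of 0.18, as did 1628 of all genes. Without the shallow Parental sgNORAD replicate 1, 45 members and 1921 of all genes rose, and the member median stayed at 0.16. In 70 of 74 members both Parental sgNORAD libraries lay above both Parental sgControl libraries, and in none below, where 37.4% and 30% of all genes tested did so.

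**Figure D3:**
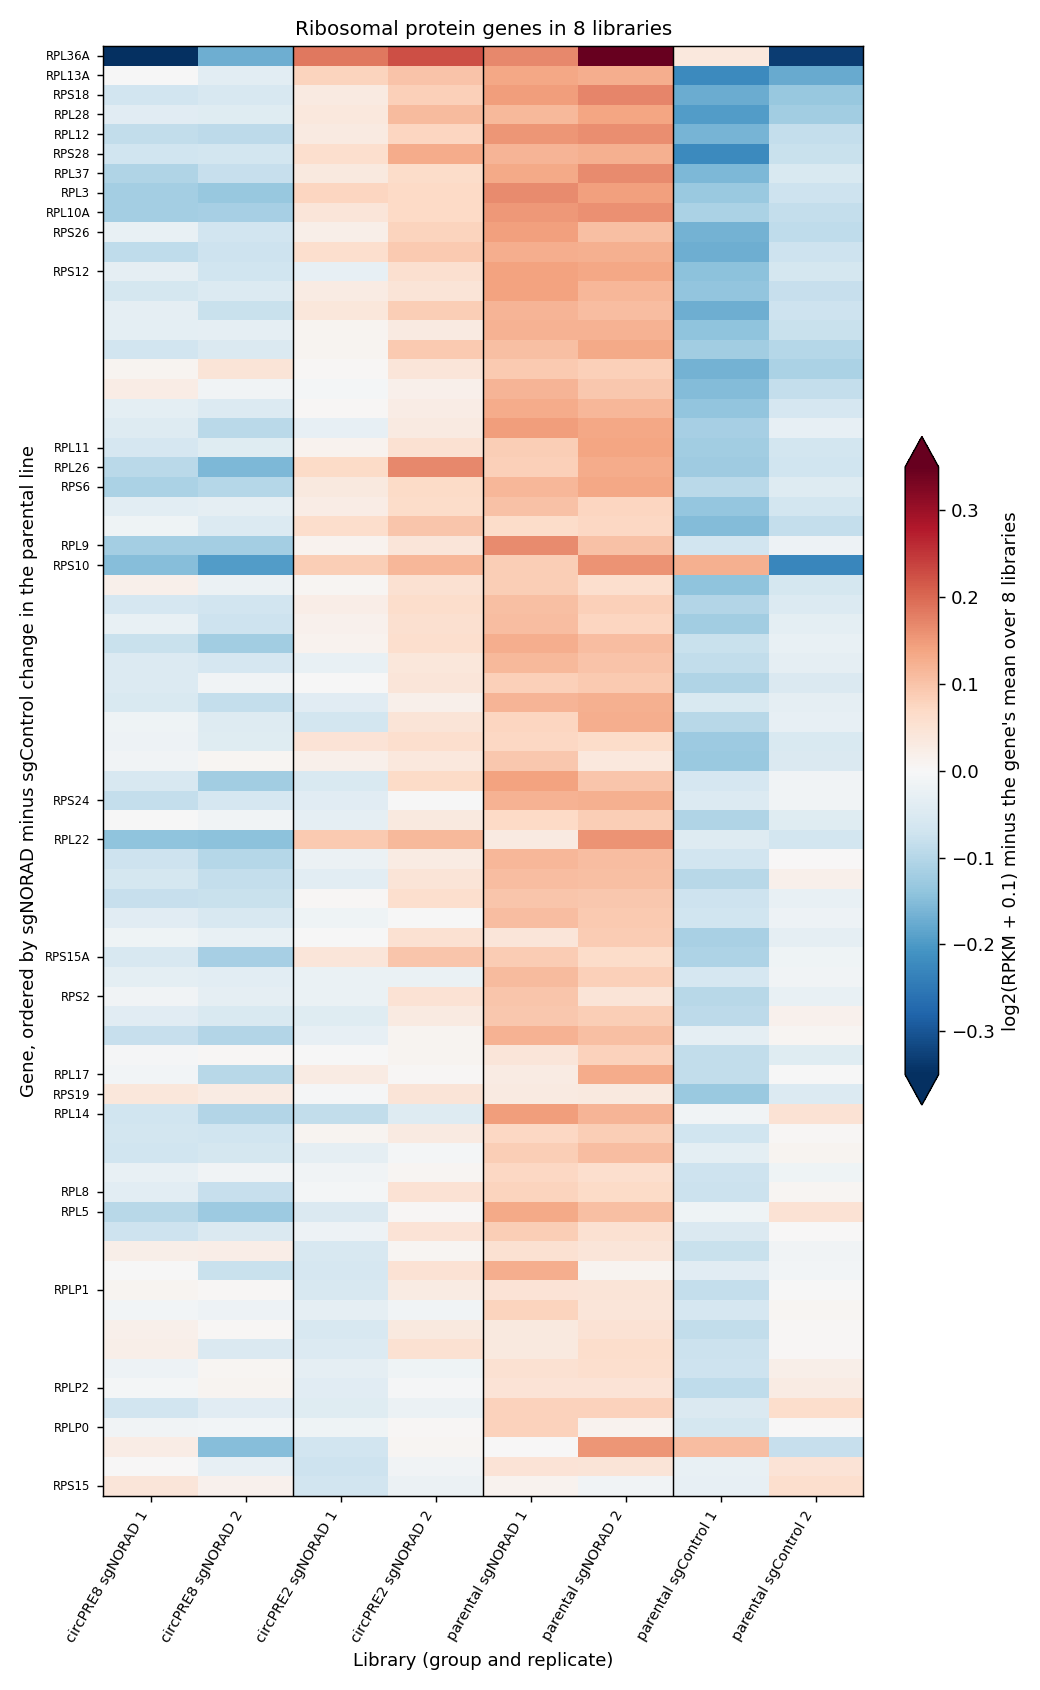
Level of each of 74 ribosomal protein genes in 8 libraries as log2(RPKM + 0.1) minus the gene's mean over the libraries (red above, blue below, values beyond 0.35 in the end colours), with genes ordered by the difference between Parental sgNORAD and Parental sgControl. The Parental sgNORAD columns are the highest for most genes, and Parental sgControl replicate 1 and the circPRE8 sgNORAD columns are low; RPL36A at the top and RPS10 are among those that vary most between libraries of a group. Only genes described in the text are labelled.

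Next came the circPRE8 line under the same NORAD guide, set against Parental sgNORAD. Here most members were lower in circPRE8 sgNORAD: 50 of 74 (67.6%) fell and none rose, where 28.6% of all genes tested fell and 23.6% rose. The median member changed by -0.15 on the log2 scale, against -0.02 for the median gene. By subunit, 33 of 43 large-subunit and 17 of 31 small-subunit genes fell. Members made up 8.27% and 8.16% of the summed RPKM in circPRE8 sgNORAD, against 9.46% and 9.20% in Parental sgNORAD. Mitochondrially encoded genes held 7.20% and 8.69% in circPRE8 sgNORAD and 4.01% and 8.34% in Parental sgNORAD; without Parental sgNORAD replicate 1, 44 members fell, as did 2790 of all 11585 genes. With these genes left out of the sum, members made up 8.91% and 8.94% in circPRE8 sgNORAD and 9.86% and 10.0% in Parental sgNORAD, and under scaling to that sum 65 members fell, against 31% of all genes tested. Epithelial markers differed between the same groups: CDH1 had 5.78 and 6.18 RPKM in circPRE8 sgNORAD and 11.5 and 10.5 RPKM in Parental sgNORAD, EPCAM 73.2 and 73.8 RPKM in circPRE8 sgNORAD and 113 and 112 RPKM in Parental sgNORAD. KRT8, KRT18 and KRT19 were higher in both circPRE8 sgNORAD libraries than in both Parental sgNORAD libraries, KRT19 with 605 and 619 RPKM in circPRE8 sgNORAD and 446 and 431 RPKM in Parental sgNORAD. The part of these marker differences in the result was not tested.

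RPL3, near the peptidyl transferase centre, had 372 and 368 RPKM in circPRE8 sgNORAD and 452 and 445 RPKM in Parental sgNORAD. It fell to 0.824 of the Parental sgNORAD level (log2 -0.28 ± 0.037 SE, limma adjusted p = 8.66e-05). RPL10A, of the L1 stalk that guides spent tRNA out, had 414 and 415 RPKM in circPRE8 sgNORAD and 499.9 and 503 RPKM in Parental sgNORAD, a ratio of 0.827 (limma adjusted p = 7.88e-05). In both genes the groups were well apart. RPL9 had 98.0 and 97.8 RPKM in circPRE8 sgNORAD and 119 and 114 RPKM in Parental sgNORAD, a ratio of 0.84 (limma adjusted p = 0.000141). RPL12 stood at 364 RPKM in both circPRE8 sgNORAD libraries and at 431 and 434 RPKM in Parental sgNORAD, a ratio of 0.843. RPL37 followed with 51.3 and 52.2 RPKM in circPRE8 sgNORAD and 60.6 and 62.0 RPKM in Parental sgNORAD, a ratio of 0.845. RPL36A fell most, to 0.633 (limma adjusted p = 0.00266), with 1.03 and 1.36 RPKM in circPRE8 sgNORAD and 1.75 and 2.12 RPKM in Parental sgNORAD.

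The P-stalk genes had ratios of 0.961 for RPLP0, 0.972 for RPLP1 and 0.968 for RPLP2 and did not pass with the deposited scaling, though RPLP0 passed under another. Both 5S ribonucleoprotein genes fell: RPL5 to 0.852 (limma adjusted p = 0.000392) and RPL11 to 0.893 (limma adjusted p = 0.00372). RPL5 had 213 and 208 RPKM in circPRE8 sgNORAD, below both Parental sgNORAD libraries at 249 and 244 RPKM. Of the exit tunnel genes, RPL22 (0.849), RPL26 (0.851), RPL35 (0.883) and RPL4 (0.912) fell, and RPL17, RPL19, RPL23A, RPL31 and RPL39 did not pass, with ratios from 0.912 for RPL17 to 0.959 for RPL19. Of the mRNA channel genes, RPS28 (0.877), RPS26 (0.888) and RPS3 (0.904) fell, and RPS2 (0.938) and RPSA (0.95) did not pass. Members with the TOP motif fell in 31 of 44 cases and those without it in 10 of 16. Both circPRE8 sgNORAD libraries lay below both Parental sgNORAD libraries in 71 members and above them in 1, where 41.1% and 34.5% of all genes tested did so.

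RPS15 and RPS19, both of the small-subunit head, were at 1.02 and 1 of their Parental sgNORAD level. RPS15 had 271 and 266 RPKM in circPRE8 sgNORAD, 251 and 260 RPKM in circPRE2 sgNORAD, 266 and 261 RPKM in Parental sgNORAD and 258 and 274 RPKM in Parental sgControl. Of the other 6 libraries, circPRE2 sgNORAD replicate 1 was the 1 outside the span of the control libraries. RPS19, which is mutated in Diamond-Blackfan anaemia, had 211 and 209 RPKM in circPRE8 sgNORAD, 204 and 212 RPKM in circPRE2 sgNORAD, 209 and 210 RPKM in Parental sgNORAD and 187 and 198 RPKM in Parental sgControl. Its control libraries were the lowest.

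Against the same Parental sgNORAD libraries, few members passed the test in the circPRE2 line. With the deposited scaling 8 of 74 (10.8%) fell and none rose, close to the 7.91% of all genes tested that fell, while 10.9% rose. The median member changed by -0.07, against 0.01 for the median gene tested. The fitted change was above 0 in only 3 of 74 members, so most that did not pass were also lower. RPL14 had 83.3 and 85.7 RPKM in circPRE2 sgNORAD and 97.9 and 96.1 RPKM in Parental sgNORAD, a ratio of 0.871 (log2 -0.20 ± 0.036 SE, limma adjusted p = 0.00389). The other 7 were RPS24 (0.905), RPL5 (0.906), RPL24 (0.908), RPL21 (0.913), RPL7 (0.919), RPL4 (0.92) and RPS7 (0.922). RPS24 had 73.7 and 75.7 RPKM in circPRE2 sgNORAD, against 82.5 and 82.6 RPKM in Parental sgNORAD. In circPRE8 sgNORAD, set against the same Parental sgNORAD libraries, these 8 genes had ratios from 0.852 for RPL5 to 0.912 for RPL4. Without circPRE2 sgNORAD replicate 1 the medians were -0.053 for members and 0.005 for all genes, and without replicate 2 -0.099 and 0.01. Without Parental sgNORAD replicate 1 they were -0.073 and 0.019, and without replicate 2 -0.074 and -0.01. Leaving out a circPRE8 sgNORAD library, which shares only in the estimate of spread, moved neither median. Fewer members passed in each of these runs. Fewer of all genes fell too, except without Parental sgNORAD replicate 2. For 70 of 74 members the 95% interval of the difference stayed within a 1.2-fold change either way, a limit chosen after the values were seen. It did so for 48 of 74 in Parental sgNORAD against Parental sgControl, and for 48 in circPRE8 sgNORAD against Parental sgNORAD. The share over all genes was not computed. Both circPRE2 sgNORAD libraries lay below both Parental sgNORAD libraries in 59 members and above them in none, where 28.2% and 31.9% of all genes tested did so.

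The circPRE lines were then set against each other under the same guide. In circPRE8 sgNORAD, 20 of 74 members (27%) fell relative to circPRE2 sgNORAD and none rose, near the 25.7% of all genes tested that fell; 18% of all genes rose. The median member changed by -0.07 and the median gene by -0.04, and without circPRE2 sgNORAD replicate 2 both changed by -0.04. RPL22 had 22.7 and 22.6 RPKM in circPRE8 sgNORAD and 26.6 and 27.1 RPKM in circPRE2 sgNORAD (ratio 0.844, limma adjusted p = 0.000935). RPL26, beside the exit tunnel, had 17.3 and 16.5 RPKM in circPRE8 sgNORAD and 19.3 and 20.8 RPKM in circPRE2 sgNORAD (ratio 0.844, limma adjusted p = 0.00138). Both are among the genes that overlap another gene in coding sequence. RPL3 (0.872), RPL10A (0.886) and RPL36A (0.676) fell as well. RPS28 also passed, at a ratio of 0.894 (limma adjusted p = 0.0155), and its adjusted p ran between 0.00177 and 0.111 over the alternatives. With relative log expression (RLE) scaling, which sets each library by its median ratio to the gene averages, the median member changed by -0.03 and the median gene by 0.01. Under it 7 members fell and 1 rose, against 20.3% and 24.4% of all genes tested, and 54.6% of all calls were higher, against 41.2% with the deposited scaling. The 1 member that rose there was RPS15, named after its value was seen. With the deposited scaling but without circPRE8 sgNORAD replicate 1, the medians were -0.079 for members and -0.043 for all genes. Without replicate 2 they were -0.06 and -0.028. Fewer members fell in these runs and without circPRE2 sgNORAD replicate 2, and their share then lay below that of all genes tested. In circPRE2 sgNORAD, 71 of 74 members were higher in replicate 2, where 48% of all genes tested were. Both circPRE8 sgNORAD libraries lay below both circPRE2 sgNORAD libraries in 50 members and above them in 2, where 44.3% and 31.2% of all genes tested did so.

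**Figure D4:**
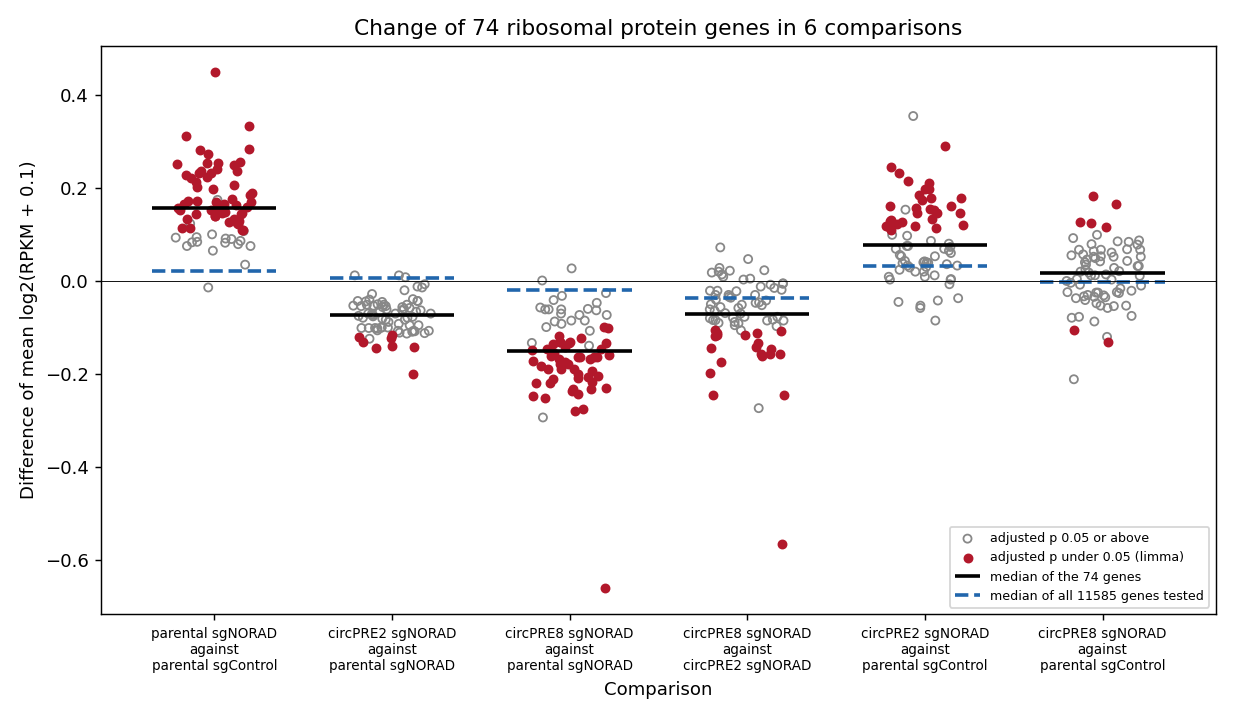
Difference in mean log2(RPKM + 0.1) of 74 ribosomal protein genes in 6 comparisons (filled, limma adjusted p under 0.05; open, not), with the median of these genes (solid line) and of all 11585 genes tested (dashed line). The gene medians lie at 0.16 for Parental sgNORAD against Parental sgControl and at -0.15 for circPRE8 sgNORAD against Parental sgNORAD, and near 0 for circPRE8 sgNORAD against Parental sgControl.

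Both circPRE lines were also compared with Parental sgControl, which differs from them in the line as well as in the guide, so the effects of line and guide cannot be told apart. In circPRE8 sgNORAD, 5 of 74 members (6.76%) rose and 2 (2.7%) fell, where 20% of all genes tested rose and 20.5% fell. The median was 0.02, with -0.02 without Parental sgControl replicate 1 and 0.06 without replicate 2, and 0.01 without circPRE8 sgNORAD replicate 1. RPL13A rose 1.14-fold, with 812 and 792 RPKM in circPRE8 sgNORAD and 695 and 718 RPKM in Parental sgControl (limma adjusted p = 0.0042). RPS27 (1.12-fold), RPS19 (1.09-fold) and RPL28 (1.08-fold) also rose, and RPL5 (0.914) and RPL14 (0.929) fell. RPL5 had 213 and 208 RPKM in circPRE8 sgNORAD, against 225 and 235 RPKM in Parental sgControl. Fewer members rose without either circPRE8 sgNORAD library or Parental sgControl replicate 1, and more without Parental sgControl replicate 2. Without either Parental sgControl library or circPRE8 sgNORAD replicate 1, the share of members that rose stayed below that of all genes. Neither fall passed without Parental sgControl replicate 2 or either circPRE8 sgNORAD library. For 71 of 74 members the 95% interval stayed within a 1.2-fold change. Both circPRE8 sgNORAD libraries lay above both Parental sgControl libraries in 24 members and below them in 13, where 35.8% and 36.5% of all genes tested did so.

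In circPRE2 sgNORAD, 30 of 74 members (40.5%) rose against Parental sgControl and none fell, where 25.2% of all genes tested rose and 17.8% fell. RPL13A had 857 and 870 RPKM in circPRE2 sgNORAD and 695 and 718 RPKM in Parental sgControl (1.22-fold, limma adjusted p = 0.000206). RPS28 (1.19-fold), RPL28 (1.17-fold), RPL26 and RPS18 (1.16-fold each) and RPL34 (1.15-fold) followed, all limma adjusted p of 0.00303 or less. Under RLE scaling 15 members rose and 1 fell, against 19.6% and 24.5% of all genes tested, and the share of higher calls among all genes was 44.3%, against 58.6% with the deposited scaling. The member that fell there was RPL14, named after its value was seen. With the deposited scaling the median member changed by 0.078 and the median gene by 0.033. Without circPRE2 sgNORAD replicate 2 these were 0.063 and 0.035, and without replicate 1 0.108 and 0.029. Without Parental sgControl replicate 1 they were 0.054 and 0.034, and without replicate 2 0.109 and 0.03. Without circPRE2 sgNORAD replicate 2 or Parental sgControl replicate 1, fewer members and fewer of all genes rose, and their shares lay closer together. Both circPRE2 sgNORAD libraries lay above both Parental sgControl libraries in 45 members and below them in 1, where 42.9% and 31.7% of all genes tested did so.

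Across the 4 groups, the mean level was highest in Parental sgNORAD for 69 of 74 members and lowest in Parental sgControl for 42. Large-subunit genes summed to 10250 and 10165 RPKM in circPRE8 sgNORAD, 10578 and 10877 in circPRE2 sgNORAD, 11378 and 11299 in Parental sgNORAD, and 9852 and 10321 in Parental sgControl. Small-subunit genes summed to 8954 and 8872 RPKM in circPRE8 sgNORAD, 9080 and 9422 in circPRE2 sgNORAD, 9766 and 9723 in Parental sgNORAD, and 8463 and 8868 in Parental sgControl. For both subunits Parental sgNORAD stood above the other 6 libraries and circPRE2 sgNORAD above circPRE8 sgNORAD. The circPRE8 sgNORAD sums overlapped those of Parental sgControl in the large subunit and lay just above them in the small subunit.

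The median change was small, and part of the calls differed between scalings of the libraries. Counts were made under 7 scalings: the deposited library size, trimmed mean of M values (TMM), RLE, RLE computed without the members, the upper quartile, the median of all genes tested, and the summed RPKM without mitochondrially encoded genes. In Parental sgNORAD against Parental sgControl, 36 members rose under all 7, as did 15.6% of all genes tested, among them RPL13A, RPS18, RPL28, RPL12 and RPS28. RLE gave 43 higher members (18% of all genes), and the sum without mitochondrially encoded genes gave 64 (22%). In circPRE8 sgNORAD against Parental sgNORAD, 36 members fell under all 7 (22.7% of all genes), among them RPL3, RPL10A, RPL9, RPL12, RPL37 and RPL36A, with 42 under RLE (26%) and 65 under the sum without mitochondrially encoded genes (31%). The 8 members that fell in circPRE2 sgNORAD against Parental sgNORAD did so under all 7 (6.87%), with 13 under RLE (11.2%) and 17 under the sum (7.22%).

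More turned on the scaling in the other comparisons. In circPRE8 sgNORAD against circPRE2 sgNORAD, RPL10A, RPL22, RPL26, RPL3 and RPL36A fell under all 7, as did 18.8% of all genes, and the sum without mitochondrially encoded genes gave 45 lower members (31.3%). In circPRE2 sgNORAD against Parental sgControl, 13 members rose under all 7 (19.2%), RPL13A, RPS28 and RPL28 among them, and the sum gave 44 (28.5%). In circPRE8 sgNORAD against Parental sgControl, 4 members rose, RPL13A, RPS19 and RPS27 among them, and RPL5 fell under all 7, where 18.7% of all genes rose and 19.7% fell. RLE there gave 5 higher and 2 lower members (20.2% and 21.2% of all genes), and the sum gave 10 and 4 (19.3% and 22.5%). No member was called in both directions in any comparison. No scaling moved the median of all genes tested by over 0.1.

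**Figure D5:**
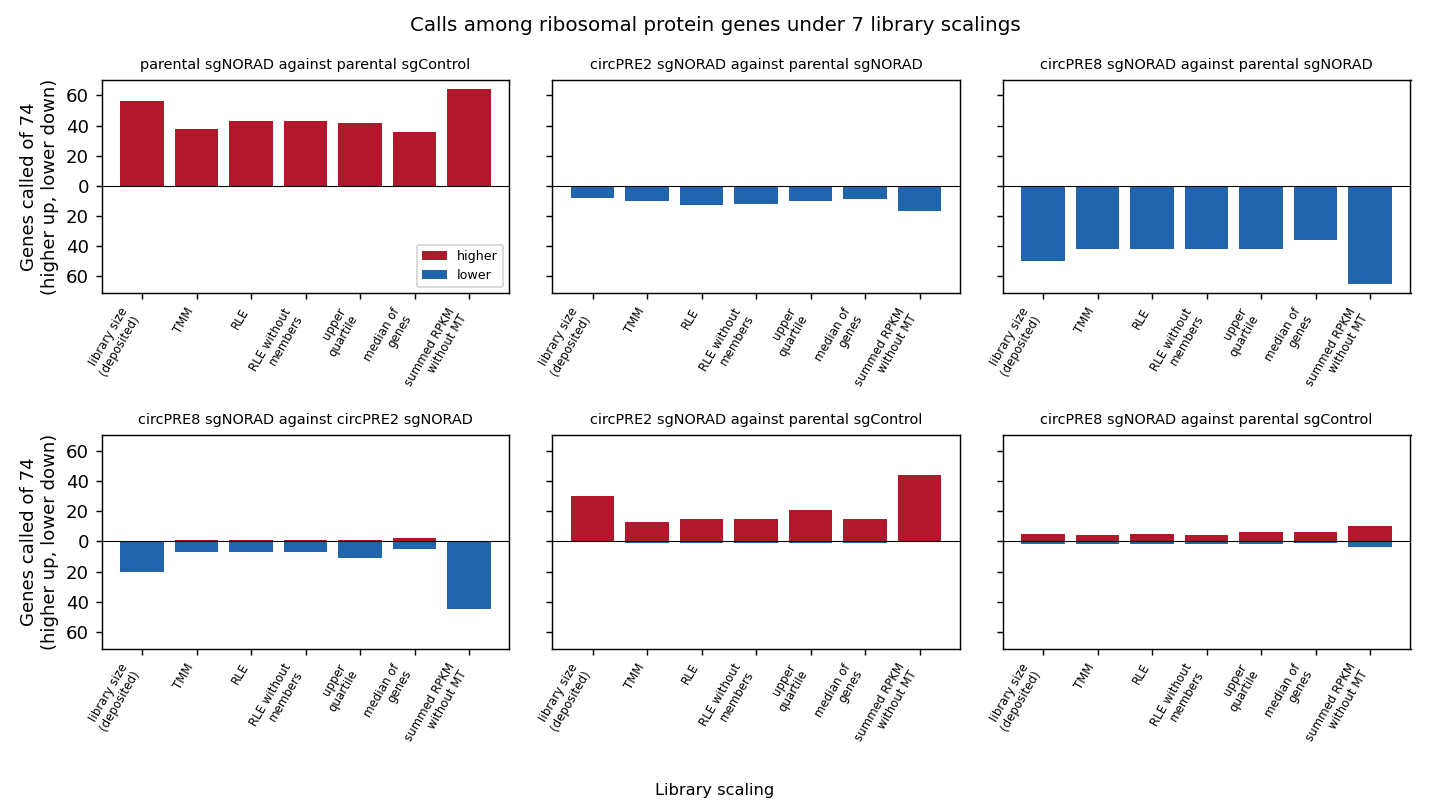
Number of ribosomal protein genes called higher (up) and lower (down) of 74 in 6 comparisons under 7 library scalings (limma adjusted p under 0.05). The count of higher genes in Parental sgNORAD against Parental sgControl runs between 36 under the median of all genes and 64 under the sum without mitochondrially encoded (MT) genes, and that of lower genes in circPRE8 sgNORAD against circPRE2 sgNORAD between 5 and 45.

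Relatives that the symbol rule leaves out were read beside the members. FAU, a fusion that yields RPS30, had 147 and 141 RPKM in circPRE8 sgNORAD, 135 and 140 RPKM in circPRE2 sgNORAD, 152 and 153 RPKM in Parental sgNORAD and 124 and 134 RPKM in Parental sgControl. It rose 1.18-fold in Parental sgNORAD against Parental sgControl. In that comparison 5 of 7 relatives tested rose, the others being RPS27L (1.3-fold), RPL22L1 (1.15-fold), RPL26L1 (1.12-fold) and RPL7L1 (1.11-fold). RPL36AL did not pass there. This gene, which encodes a near-identical copy of the RPL36A protein, had 199.7 and 193 RPKM in circPRE8 sgNORAD, 172 and 176 RPKM in circPRE2 sgNORAD, 172 and 173 RPKM in Parental sgNORAD, and 173 and 182 RPKM in Parental sgControl. It rose 1.14-fold in circPRE8 sgNORAD against Parental sgNORAD, whereas RPL36A fell. The fall of RPL36A rests on 182 to 385 reads per library, and 67.3% of its coding bases are shared with a readthrough gene. The 2 genes are therefore not measured alike. RPL10L was listed at 0 throughout, and RPL3L and RPL39L were below the filter.

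Genes of the same pathways gave the setting, to be read against all genes tested: 20.9% rose and 16.4% fell in Parental sgNORAD against Parental sgControl, 10.9% and 7.91% in circPRE2 sgNORAD against Parental sgNORAD, and 23.6% and 28.6% in circPRE8 sgNORAD against Parental sgNORAD. Of 15 tested mRNAs on the list of other TOP mRNAs, 10 rose and 1 fell in Parental sgNORAD against Parental sgControl, led by the elongation factor gene EEF2 (1.18-fold), EIF3H (1.17-fold), EIF4B (1.16-fold) and EEF1D (1.14-fold), with NAP1L1 lower (0.938). Of these 15, 11 fell in circPRE8 sgNORAD against Parental sgNORAD, led by EIF3E (0.833) and EEF2 (0.843), and NAP1L1 rose (1.09-fold). In circPRE2 sgNORAD against Parental sgNORAD 3 fell, with NPM1, a nucleolar chaperone, at 0.878.

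Of 42 ribosome assembly genes, 23 rose and 1 fell in Parental sgNORAD against Parental sgControl, where 20.9% and 16.4% of all genes did. MDN1, an ATPase that strips assembly factors from the large subunit, rose most (1.57-fold). It had 10.9 RPKM in the shallow Parental sgNORAD replicate 1 and 7.62 in replicate 2, against 6.29 and 5.27 RPKM in Parental sgControl. BRIX1 fell (0.801). Of the same genes, 26 fell and 2 rose in circPRE8 sgNORAD against Parental sgNORAD, where 28.6% and 23.6% of all genes did, with MDN1 at 0.353 and the RNA polymerase I subunit genes POLR1A and POLR1B at 0.659 and 0.673. In circPRE2 sgNORAD against Parental sgNORAD 28 fell and none rose, led by DDX21 (0.805), where 7.91% and 10.9% of all genes did and 8 of 74 ribosomal protein genes fell. Whether the lists differ in their response was not tested.

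Among 12 regulator genes, 7 rose and none fell in Parental sgNORAD against Parental sgControl. MYC had 38.6 and 35.9 RPKM in circPRE8 sgNORAD, 72.0 and 71.5 RPKM in circPRE2 sgNORAD, 92.1 and 93.0 RPKM in Parental sgNORAD and 58.2 and 59.5 RPKM in Parental sgControl. It was 1.57-fold higher in Parental sgNORAD than in Parental sgControl (limma adjusted p = 5.93e-07) and at 0.403 in circPRE8 sgNORAD relative to Parental sgNORAD (limma adjusted p = 1.21e-09). All 4 groups were apart from each other in MYC, with circPRE8 sgNORAD lowest. MTOR (0.683), LARP1B (0.77) and LARP1 (0.791) also fell in circPRE8 sgNORAD against Parental sgNORAD. MDM2 (1.38-fold) rose in Parental sgNORAD against Parental sgControl.

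Genes for mitochondrial ribosomal proteins, which build the separate ribosome of that organelle, were set beside the members. In Parental sgNORAD against Parental sgControl, 17 of 73 tested rose and 5 fell, near the 20.9% of all genes that rose and below the 16.4% that fell, with a median of 0.02 on the log2 scale, where the cytosolic genes had 56 of 74 and 0.16. Of the mitochondrial genes 11 rose and 19 fell in circPRE8 sgNORAD against Parental sgNORAD, where 23.6% and 28.6% of all genes did, with a median of -0.04, where the cytosolic genes had 0 and 50 and -0.15. In circPRE2 sgNORAD against Parental sgNORAD the order was the other way. There 16 of 73 mitochondrial genes fell and none rose, with a median of -0.098. Of the cytosolic genes 8 of 74 fell and none rose, with a median of -0.074, where 7.91% of all genes fell and 10.9% rose.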

How the data were processed

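Poly(A) RNA libraries of HCT116 CRISPRi lines were grouped by the line and guide in the labels, 4 groups of 2. The authors deposited 1 table of RPKM values, and its 8 columns were all used. The submitters' processing notes name STAR without a version, featureCounts 1.6.0, edgeR 3.24.0 and the build hg38. Neither the annotation release nor the strand setting nor any filter of the authors is stated there, so overlapping genes and near-identical copies may share or lose reads. The series' design text mentions triplicates and small RNA, which these labels do not, and was not used.

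Members and gene lists were chosen with earlier results of these data known. Gene identifiers were matched without their version to GENCODE release 29, 19379 of 19411, for coordinates, exon lengths and overlaps. Library sizes were recovered from low RPKM values: 87.2% to 88.7% of values worth up to 20 reads came out whole, within 0.1 of a read, and only 40 of 74 members were whole in all libraries, so no count test was run. Precision therefore rests on the spread between libraries.

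Genes that reached 0.5 RPKM in 2 or more libraries were tested with limma 3.58.1 (R 4.3.3) on log2(RPKM + 0.1), with 1 coefficient per group, an intensity trend, 4 residual degrees of freedom (11.6 after moderation) and Benjamini-Hochberg adjustment at 0.05. Python 3.11.15 was used for the tables. Alternatives were 6 other scalings, other pseudocounts and filters, fits on 2 groups only, a replicate block, and leaving out each library; the scaling by the median of all genes was added after the data were seen. Genes named are, in each comparison, the 6 members with the largest change in each direction among those that passed, the 5 highest and 5 lowest, all members of the role lists (P-stalk, 5S ribonucleoprotein, exit tunnel, mRNA channel), the relatives, and up to 4 per direction of the other lists; others are examples. TOP motifs were read from RefSeq sequences (GRCh38.p14). A few genes that this rule names are not reported here.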

Additional observations from a re-analysis of the deposited data

How the results depend on the processing

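Of 12 counts of members called higher or lower in the 6 comparisons, alternatives other than leaving out a library left 113 values within 1.5 times the reported count and moved 31. Some reported counts were 0. Those that stayed at 0 are among the 113 and those that left 0 among the 31, so the tally overstates how stable the other counts were. In Parental sgNORAD against Parental sgControl, the 56 higher members were 36 under the median of all genes. In circPRE2 sgNORAD against Parental sgNORAD, the 8 lower members were 13 under RLE and 17 under summed RPKM without mitochondrially encoded genes. They were 2 with no filter and 4 in a fit of those 2 groups. Of all 11585 genes, 916 fell with the deposited scaling, 1297 under RLE, 836 under that sum and 688 in the fit of 2 groups. With no filter 536 of 17350 genes fell. In circPRE8 sgNORAD against circPRE2 sgNORAD, the 20 lower members were 7 under TMM, RLE and RLE without members, 11 under the upper quartile and with no filter, 5 under the median of all genes, and 45 under summed RPKM without mitochondrially encoded genes. There, 1 member was higher under TMM, RLE, RLE without members and the upper quartile, and 2 under the median of all genes. Of all 11585 genes, 2975 fell with the deposited scaling, 2358 under TMM, 2349 under RLE and 2352 under RLE without members. Under the upper quartile 2478 fell, under that sum 3628, and with no filter 2691 of 17350. Between 2696 and 2823 of all genes rose under TMM, RLE, RLE without members and the upper quartile. In circPRE2 sgNORAD against Parental sgControl, the 30 higher members were 13 under TMM and 15 under RLE, RLE without members and the median of all genes, and 1 member was lower under each of those 4 and the upper quartile. Of all 11585 genes, 2914 rose with the deposited scaling, 2260 under TMM, 2265 under RLE and 2268 under RLE without members. Between 2662 and 2843 fell under TMM, RLE, RLE without members and the upper quartile. In circPRE8 sgNORAD against Parental sgControl, the 5 higher and 2 lower members were 10 and 4 under summed RPKM without mitochondrially encoded genes, 3 and 1 with no filter, and 1 was lower under the median of all genes. Of all 11585 genes, 2322 rose and 2370 fell with the deposited scaling, and 2241 and 2608 under that sum. With no filter 2134 rose and 2091 fell of 17350. Every scaling moves all values of a library by 1 factor by construction, for the gene median after the 0.1 is added. Under summed RPKM without mitochondrially encoded genes the median standard error of a member was 0.0267, against 0.0387 with the deposited scaling. In circPRE2 sgNORAD against Parental sgNORAD the member median there was -0.054, against -0.074, though more members were called. Why the counts moved was not tested.

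Leaving out each library in turn gave 35 to 59 higher members in Parental sgNORAD against Parental sgControl, 1 to 11 lower in circPRE2 sgNORAD against Parental sgNORAD, 36 to 53 lower in circPRE8 sgNORAD against Parental sgNORAD, 5 to 22 lower in circPRE8 sgNORAD against circPRE2 sgNORAD, 14 to 32 higher in circPRE2 sgNORAD against Parental sgControl, and 1 to 9 higher and 0 to 2 lower in circPRE8 sgNORAD against Parental sgControl; the other 5 counts stayed at 0. Where a group is left with 1 library, that library is assumed to vary like the other groups. The number of all genes called moved between these runs as well. Replicate numbers did not pair the libraries: correlations of same-numbered deviations ran from -0.173 to 0.211, and a replicate block gave 55, 6, 48, 19, 29 and 5 in the same order, with 2 lower in the last. Single members named for their change kept their direction in every alternative run, and 24 values, with 41 more from leaving out a library, lost the threshold. With 2 libraries a group, the median 95% interval of a member reached 0.084 either side of its log2 change in Parental sgNORAD against Parental sgControl.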
